A study of Caenorhabditis elegans with 11 samples.

Results

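The 6 amino acid transporter genes *aat-1*, *aat-2*, *aat-3*, *aat-4*, *aat-5* and *aat-9* were followed in RNA-seq libraries of early *C. elegans* embryos. They are 6 of the 9 *aat* genes in a table of 46772 genes, and all 6 were among the 11550 protein-coding genes tested. The list was chosen by its values, since some of these genes were higher in *set-2* and not in *sin-3* embryos, so their differences from wildtype in those strains are given here as a description. No p-value is given for them in the account of each gene, and the counts of calls in those strains are read as description alone. The embryos came from the wildtype N2 Bristol strain (3 libraries) and from strains carrying *cfp-1(tm6369)* (3 libraries), *set-2(bn129)* (3 libraries) or *sin-3(tm1276)* (2 libraries). They were freed from young adults with hypochlorite, polyadenylated RNA was sequenced with its strand kept, and the replicates are described as independent. The mutant alleles are described as null or strong loss-of-function. Whether the mutant embryos came from homozygous or balanced mothers is not given in the sources used here.

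The *aat* genes encode relatives of the mammalian SLC7 amino acid transporters, which pass through the membrane many times and exchange amino acids across it. Some of these proteins are light chains that reach the cell surface only when joined to a glycoprotein heavy chain, and in *C. elegans* the heavy chains are encoded by *atgp-1* and *atgp-2*. Expressed in frog oocytes, AAT-1 and AAT-3 transport amino acids together with ATGP-2, whereas AAT-9 carries aromatic amino acids without a heavy chain. CFP-1 and SET-2 are subunits of the COMPASS complex, which methylates lysine 4 of histone H3 at promoters, and SIN-3 is the scaffold of a histone deacetylase complex.

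The libraries held between 21596949 and 35258557 counts, and a read count is given here after scaling to a common library size (normalized read count). As a check of the labels, *cfp-1* transcripts in the *cfp-1* strain differed from wildtype by -1.56 on the log2 scale, those of *set-2* in its strain by -1.53 and those of *sin-3* in its strain by -1.17. The 16 maternal and 20 early embryonic transcription factor genes used as markers all had counts, while 8 sperm genes together held at most 3.62 CPM (read counts scaled to the library total) and 6 yolk genes of adults at most 3.16 CPM in any library. An embryo age score, the mean log2 level of the transcription factors minus that of the maternal genes, lay between -3.32 and -2.84 in wildtype, -3.21 and -2.75 in *set-2*, -4.44 and -3.64 in *cfp-1* and -4.63 and -4.50 in *sin-3* libraries. The *set-2* range thus overlapped that of wildtype, and the *cfp-1* and *sin-3* libraries lay below both. Bulk RNA does not tell fewer expressing cells from less RNA per cell.

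In wildtype embryos the family held a pair of abundant and a pair of scarce transcripts, with *aat-2* and *aat-1* between them. Per kilobase of coding length, the mean normalized read count was 1544 ± 266 (SD, n = 3) for *aat-3*, 1352 ± 80.6 for *aat-9*, 171 ± 33.7 for *aat-2*, 105 ± 52.6 for *aat-1*, 18.8 ± 6.08 for *aat-4* and 11.2 ± 4.45 for *aat-5*. Across libraries, the wildtype values overlapped between *aat-3* and *aat-9*, between *aat-2* and *aat-1* and between *aat-4* and *aat-5*, but not between the pairs. Within each library, however, *aat-2* stood above *aat-1* and *aat-4* above *aat-5* in 3 of 3 wildtype libraries and in 11 of 11 libraries of all strains, while *aat-3* stood above *aat-9* in 2 of 3 wildtype libraries. The order was kept when counts were divided by exon length or by no length. In *set-2* embryos *aat-3* (1839 ± 723) also stood before *aat-9* (1314 ± 144), while in *cfp-1* (1294 ± 277 against 1457 ± 183) and *sin-3* embryos (1159 ± 48.9 against 2018 ± 109.6) *aat-9* had the higher mean per kilobase.

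**Figure D1:**
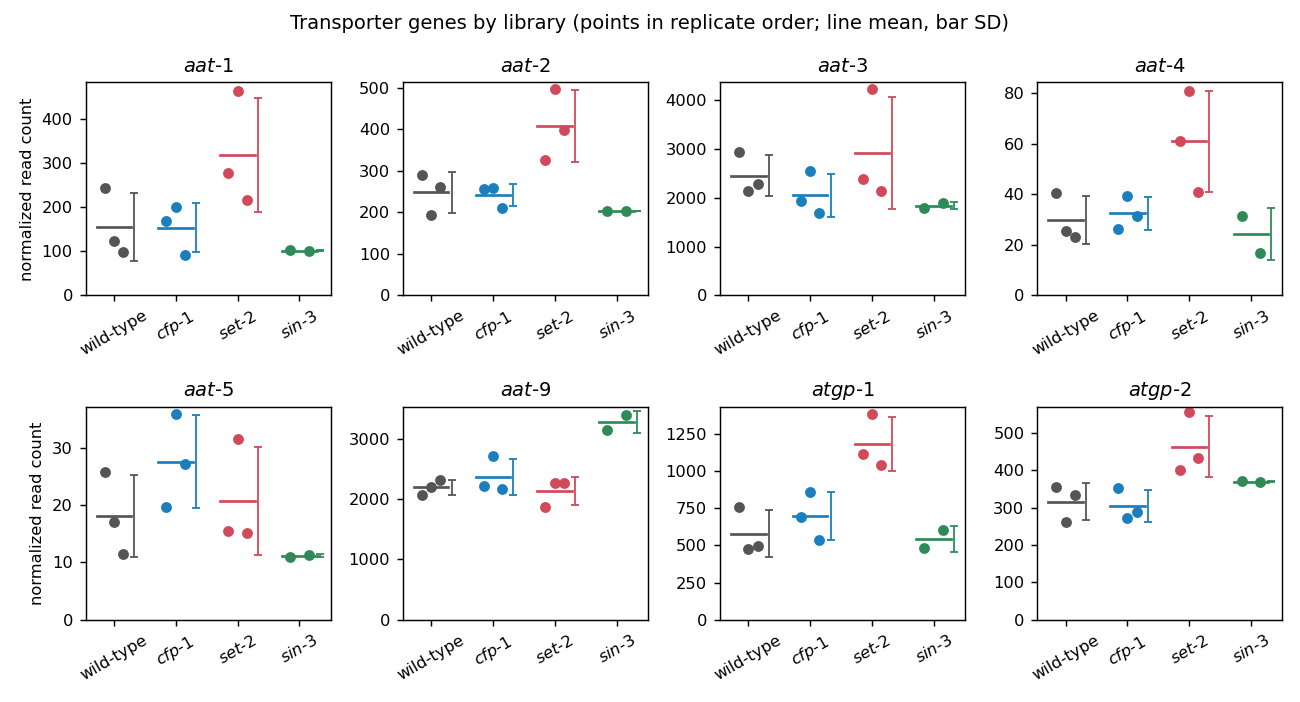
Normalized read count of the 6 transporter genes and the 2 heavy chain genes in each library, in replicate order within a strain, with the strain mean as a line and the SD as a bar. The 3 *set-2* libraries of *aat-2* (327 to 498) and *aat-4* (40.9 to 80.9) lie above all wildtype libraries, and the *sin-3* libraries of *aat-9* (3150 and 3402) lie above all others.

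The 3 genes *aat-1*, *aat-2* and *aat-4* had their highest mean in *set-2* embryos. AAT-1 is a light chain that works with ATGP-2. *aat-1* (WBGene00000002, WBcel235 chromosome IV from 9599178 to 9601695, reverse strand) had normalized read counts of 244, 123 and 99.0 in wildtype replicates 1, 2 and 3, of 277, 464 and 217 in *set-2*, of 169, 200 and 92.3 in *cfp-1* and of 103 and 101 in *sin-3* embryos. Its *set-2* replicate 3 lay below wildtype replicate 1, so the strains overlapped, whereas each *set-2* library exceeded every *cfp-1* and *sin-3* library. The log2 fold change was 1.04 (standard error 0.38) in *set-2* and -0.61 (standard error 0.44) in *sin-3*. *aat-1* was also the most variable of the abundant and middle transcripts, with an SD of 77.8 on a mean of 155 in wildtype against 130.9 on a mean of 2194 for *aat-9*.

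*aat-2* (WBGene00000003, chromosome V from 9244402 to 9246360, reverse strand) encodes another protein of the light chain type. Its normalized read counts were 289, 194 and 262 in wildtype, 327, 498 and 398 in *set-2*, 255, 258 and 212 in *cfp-1* and 203 and 203 in *sin-3* embryos. All *set-2* libraries stood above all libraries of the other strains. The log2 fold change was 0.72 (standard error 0.20) in *set-2* and -0.29 (standard error 0.22) in *sin-3*.

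*aat-4* (WBGene00000005, chromosome IV from 6272529 to 6275721, reverse strand) is a less studied family member and had few reads, between 18 and 77 per library. The normalized read count was 40.7, 25.6 and 22.9 in wildtype, 61.0, 80.9 and 40.9 in *set-2*, 26.3, 39.5 and 31.5 in *cfp-1* and 31.5 and 17.0 in *sin-3* embryos. The lowest *set-2* library exceeded the highest wildtype library by less than 1 normalized read count. The log2 fold change was 1.03 (standard error 0.34) in *set-2* and -0.32 (standard error 0.42) in *sin-3*. Its exons share 65 bases with 4 piRNA loci.

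The other 3 genes had smaller log2 fold changes in *set-2*, and their *set-2* libraries overlapped wildtype, as did those of *aat-1*. AAT-3 is a light chain with the same partner as AAT-1. *aat-3* (WBGene00000004, chromosome X from 2552260 to 2557736, forward strand) had 2930, 2137 and 2285 normalized read counts in wildtype, 2385, 4235 and 2134 in *set-2*, 1938, 2539 and 1682 in *cfp-1* and 1785 and 1894 in *sin-3* embryos. One *set-2* library, replicate 2, stood above the wildtype range and another, replicate 3, below it, and both *sin-3* libraries were below it. Its fold change on the log2 scale was 0.25 (standard error 0.24) in *set-2* and -0.41 (standard error 0.27) in *sin-3*. The exons of *aat-3* share 264 bases with 2 ncRNAs.

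*aat-5* (WBGene00000006, chromosome I from 2571740 to 2576020, reverse strand), a little characterised member, had between 8 and 30 reads per library. Its normalized read counts were 25.7, 17.1 and 11.5 in wildtype, 15.5, 31.5 and 15.1 in *set-2*, 19.7, 35.9 and 27.1 in *cfp-1* and 10.97 and 11.31 in *sin-3* embryos. The *sin-3* libraries lay just under the lowest wildtype library, and the other mutants overlapped wildtype. On the log2 scale it differed from wildtype by 0.18 (standard error 0.41) in *set-2* and by -0.69 (standard error 0.50) in *sin-3*.

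*aat-9* (WBGene00000010, chromosome I from 11388682 to 11396662, reverse strand), the carrier of aromatic amino acids, went the other way. It had 2063, 2195 and 2325 normalized read counts in wildtype, 1863, 2264 and 2270 in *set-2*, 2217, 2707 and 2170 in *cfp-1* and 3150 and 3402 in *sin-3* embryos. Both *sin-3* libraries exceeded all libraries of the other strains, and the *set-2* libraries overlapped wildtype. Its log2 fold change was 0.58 (standard error 0.13) in *sin-3* and -0.04 (standard error 0.12) in *set-2*. Its locus overlaps *png-1* on the opposite strand without shared exon bases, and an ncRNA shares 70 exon bases with it.

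**Figure D2:**
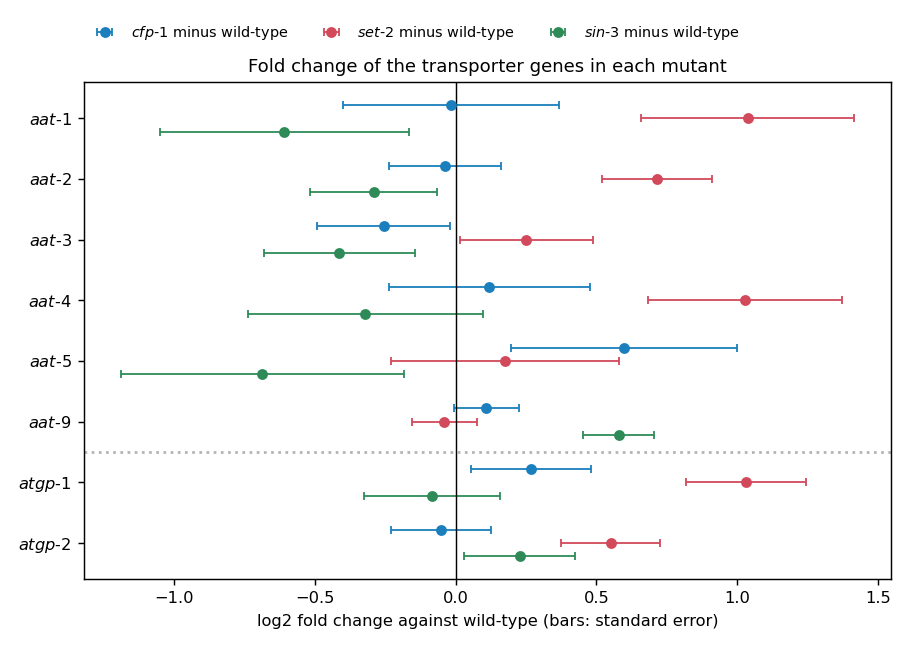
Log2 fold change against wildtype of the 6 transporter genes and, under the dotted line, the 2 heavy chain genes, with the standard error as a bar, by strain (*cfp-1* blue, *set-2* red, *sin-3* green). In *set-2*, *aat-1* (1.04), *aat-4* (1.03), *atgp-1* (1.03) and *aat-2* (0.72) lie farthest to the right, and *aat-9* stands at 0.58 in *sin-3*.

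With all 6 genes counted, edgeR's quasi-likelihood test with adjustment over all genes called 1 of 6 (*aat-2*) higher in *set-2*, where 7.39% of all genes tested were called higher and 7.03% lower. In *sin-3* it called 1 of 6 (*aat-9*) higher and 0 lower, where 12.6% of all genes were called in each direction. *aat-2* and *aat-4*, 2 of 6, had every *set-2* library above every wildtype library, as did 16.1% of all genes tested. In *sin-3*, with 2 libraries, *aat-3* and *aat-5* lay below every wildtype library, as did 30.7% of all genes, and *aat-9* above, as did 30.1%. These counts rest on the values that chose the genes. The median log2 fold change of the 6 genes was 0.48 in *set-2* and -0.37 in *sin-3*, beside -0.02 and -0.03 over all genes tested.

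Between the mutants, which leaves the wildtype means out, *set-2* minus *sin-3* embryos gave log2 fold changes of 1.65 (standard error 0.45) for *aat-1*, 1.35 (0.41) for *aat-4*, 1.007 (0.23) for *aat-2*, 0.86 (0.49) for *aat-5*, 0.66 (0.27) for *aat-3* and -0.62 (0.13) for *aat-9*. For all genes but *aat-9*, every *set-2* library exceeded both *sin-3* libraries. *cfp-1* minus *set-2* gave -1.05 (0.38) for *aat-1*, -0.91 (0.34) for *aat-4* and -0.75 (0.20) for *aat-2*, with every *cfp-1* library below every *set-2* library, and between -0.51 and 0.42 for the rest, with overlap. The *set-2* embryo age scores lay above all those of *sin-3* and *cfp-1*, so age and genotype cannot be told apart in these comparisons. With the score as a covariate, standard errors were larger. *set-2* minus *sin-3* then gave -0.66 for *aat-1*, 0.335 for *aat-4*, 0.63 for *aat-2*, 0.31 for *aat-5*, -0.18 for *aat-3* and -0.32 for *aat-9*. *cfp-1* minus *set-2* then gave 0.61 for *aat-1*, -0.15 for *aat-4* and -0.48 for *aat-2*. All these differences use the *set-2* and *sin-3* libraries that the choice rested on. The share of all genes tested that separate these mutants without overlap was not counted, so the separations are a description. Calls between the mutants were common among all 11550 genes. For *set-2* minus *sin-3*, DESeq2 called 2291 genes up and 2618 down. For *cfp-1* minus *set-2*, the DESeq2 calls were 1614 up and 1328 down.

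The *cfp-1* strain did not enter the choice, although it was compared with the same wildtype libraries. None of the transporters differed detectably between *cfp-1* and wildtype embryos. edgeR's test called 0 of 6 genes, where 12.7% of all genes were called higher and 11.4% lower, and 0 of 6 had an unadjusted p under 0.05 or were called by DESeq2. The fold was 0.99 (95% interval 0.56 to 1.76, adjusted p = 0.980) for *aat-1*, 0.97 (0.72 to 1.31, adjusted p = 0.909) for *aat-2* and 0.84 (0.586 to 1.197, adjusted p = 0.459) for *aat-3*. It was 1.09 (0.63 to 1.87, adjusted p = 0.838) for *aat-4*, 1.51 (0.83 to 2.78, adjusted p = 0.300) for *aat-5* and 1.08 (0.91 to 1.28, adjusted p = 0.531) for *aat-9*. These intervals take no account of embryo age, whose score did not overlap between *cfp-1* and wildtype libraries. *aat-5* was above every wildtype library in 2 of 3 *cfp-1* libraries.

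The heavy chain genes, which the rule did not list, were tested over all genes. *atgp-1* (WBGene00000224, chromosome IV from 17269342 to 17272181, forward strand) had 759, 476 and 496 normalized read counts in wildtype and 1114, 1385 and 1040 in *set-2* embryos, and 692, 857 and 535 in *cfp-1* and 483 and 603 in *sin-3* embryos. All *set-2* libraries exceeded those of the other strains. Of all genes tested, 16.1% had every *set-2* library above every wildtype library. *atgp-1* rose in *set-2*, by 1.03 on the log2 scale (standard error 0.21, adjusted p = 0.00963). This call was lost without wildtype replicate 3 (adjusted p = 0.0519). In *cfp-1* (0.27, adjusted p = 0.387) and *sin-3* (-0.09, adjusted p = 0.826) it did not pass the test.

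*atgp-2* (WBGene00000225, chromosome II from 14640098 to 14644083, reverse strand), the partner of AAT-1 and AAT-3, had 355, 261 and 333 normalized read counts in wildtype, 401, 556 and 433 in *set-2*, 353, 271 and 289 in *cfp-1* and 371 and 368 in *sin-3* embryos. Every *set-2* and every *sin-3* library lay above the wildtype libraries. Of all genes tested, 16.1% did so in *set-2* and 30.1% in *sin-3*. *set-2* embryos had more *atgp-2* by 0.55 on the log2 scale (standard error 0.18), just short of a call (adjusted p = 0.0552). Of 23 alternative runs, 4 called this rise, among them DESeq2 (adjusted p = 0.0235). The edgeR adjusted p was 0.136 without *set-2* replicate 2, and 0.159 or 0.129 without wildtype replicate 2 or 3. With the number in the sample titles as a block it reached 0.406. *atgp-2* differed from wildtype by 0.23 in *sin-3* (standard error 0.20, adjusted p = 0.424) and by -0.05 in *cfp-1* (standard error 0.18, adjusted p = 0.854).

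Ratios within a library do not depend on the scaling of libraries. The ratio of *aat-9* to *aat-3* reads was 1.76 and 1.80 in the *sin-3* libraries and between 0.534 and 1.29 in the other libraries. The ratio of *aat-1* to *aat-3* reads was between 0.102 and 0.116 in *set-2* and between 0.0433 and 0.0871 in the other libraries. Neither ratio overlapped between these strains and the rest. These ratios and the shares below rest on the values that chose the genes, so they are a description. How often other pairs of genes separate the strains in this way was not counted. As a share of the summed level per kilobase, *aat-9* made up 58.8% and 59.6% in *sin-3* against 36.07% to 45.95% in wildtype, and *aat-3* 34.1% and 34.0% against 45.8% to 52.4%. *aat-1*, *aat-2* and *aat-4* had shares of 4.58% to 6.55%, 7.17% to 8.59% and 0.81% to 1.24% in *set-2*, of which the *aat-2* and *aat-4* shares lay above every wildtype library.

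**Figure D3:**
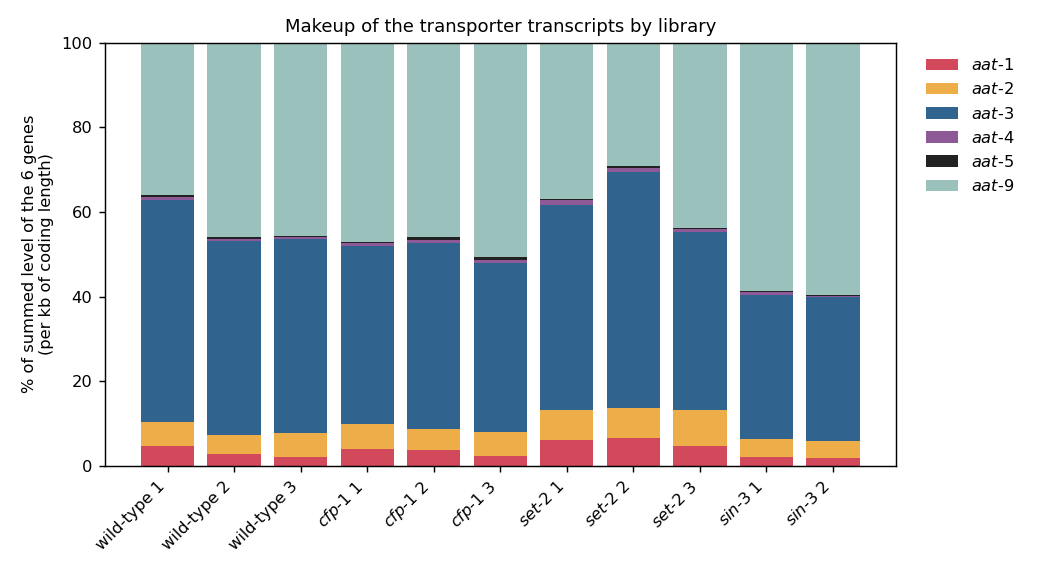
Share of each of the 6 genes in their summed normalized read count per kilobase of coding length, in percent, for each library. *aat-3* and *aat-9* fill most of each bar, and *aat-9* takes 58.8% and 59.6% in the *sin-3* libraries and 29.1% in *set-2* replicate 2.

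Single libraries carried much of the spread. *set-2* replicate 2 was the highest *set-2* library for *aat-1*, *aat-2*, *aat-3*, *aat-4* and *aat-5*, and wildtype replicate 1 and *cfp-1* replicate 2 were the highest of their strains for the same genes. These 3 libraries also had the highest summed level of the 7 body muscle markers in their strains, at 489.8 CPM in wildtype, 448 CPM in *cfp-1* and 761 CPM in *set-2*, where the other libraries held between 242 and 376 CPM. The 7 epidermis markers were highest in the same library of each of these strains, with 533 CPM in *set-2* replicate 2 against 306 and 309 CPM in the other *set-2* libraries, and so were the 7 intestine markers (98.8 CPM against 64.7 and 78.8 CPM). The part of these cell types in the result was not tested. 1 of the 7 muscle markers and 1 of the 7 epidermis markers were at or under 3 counts in every library. The 7 neuron markers held between 310 and 402 CPM over all libraries, a sum carried mostly by *snb-1* (5868 to 9810 reads) and *unc-119* (1157 to 2608). By gene, 2 of 7 were called higher and 0 lower in *set-2*, where 7.39% of all genes were called higher. These were *rab-3* (log2 fold change 2.25, standard error 0.54, 3 to 43 reads) and *ric-4* (0.60, standard error 0.17). *ric-4* was also called higher in *cfp-1* and *sin-3*. The intestine markers likewise had 2 of 7 called higher and 0 lower in *set-2*. These were *ifb-2* (1.36, standard error 0.42) and *asp-1* (3.47, standard error 0.59, 2 to 72 reads), and *asp-1* was also called higher in *cfp-1*. Of the muscle and epidermis markers, 0 were called in *set-2*.

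Leaving out these 3 libraries together, chosen after the data were seen, gave log2 fold changes in *set-2* of 1.15 (standard error 0.27) for *aat-1*, 0.67 (0.19) for *aat-2*, 1.06 (0.36) for *aat-4* and 0.03 (0.11) for *aat-3*. With all libraries these values were 1.04, 0.72, 1.03 and 0.25. This step took out the highest wildtype and the highest *set-2* library together. The *set-2* libraries kept held 376 and 335 CPM of muscle markers and the wildtype ones 285 and 330 CPM. The strains were thus not made alike in these markers. *aat-9* in *sin-3* stood at 0.54 (0.11). For *atgp-1* in *set-2* the value was 1.15 (standard error 0.16, adjusted p = 0.000854). Without *set-2* replicate 2 alone, the log2 fold changes in *set-2* were 0.67 for *aat-1*, 0.55 for *aat-2*, 0.78 for *aat-4* and -0.11 for *aat-3*, and without wildtype replicate 1 alone they were 1.52, 0.84, 1.31 and 0.40.

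**Figure D4:**
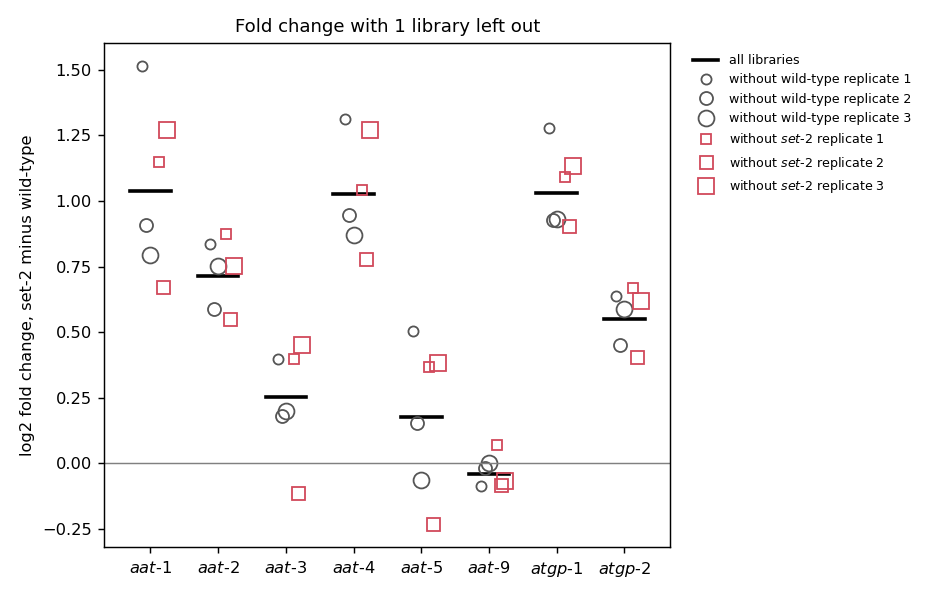
Log2 fold change of each transporter and heavy chain gene in *set-2* against wildtype with all libraries (black line) and with 1 wildtype (circles) or *set-2* library (squares) left out. *aat-1* moves between 0.67 without *set-2* replicate 2 and 1.52 without wildtype replicate 1 and stays above 0, whereas *aat-3* falls to -0.11 without *set-2* replicate 2.

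The embryo age score bore on the strains unequally. With it as a covariate, the *set-2* log2 fold changes were 0.88 for *aat-1*, 0.69 for *aat-2*, 0.94 for *aat-4*, 0.17 for *aat-3*, 0.14 for *aat-5* and -0.02 for *aat-9*. In *sin-3*, whose scores did not overlap those of wildtype, *aat-1* went from -0.61 to 1.54 (standard error 0.88) and *aat-9* from 0.58 to 0.30 (standard error 0.29). In *cfp-1*, *aat-1* went from -0.02 to 1.49 (standard error 0.65, unadjusted p = 0.0444, adjusted p = 0.217), *aat-2* from -0.04 to 0.20 (standard error 0.38, adjusted p = 0.789) and *aat-3* from -0.26 to 0.29 (standard error 0.48, adjusted p = 0.761). Age and genotype cannot be told apart in *sin-3* or *cfp-1* embryos, as the scores of both strains lay apart from all wildtype libraries.

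**Figure D5:**
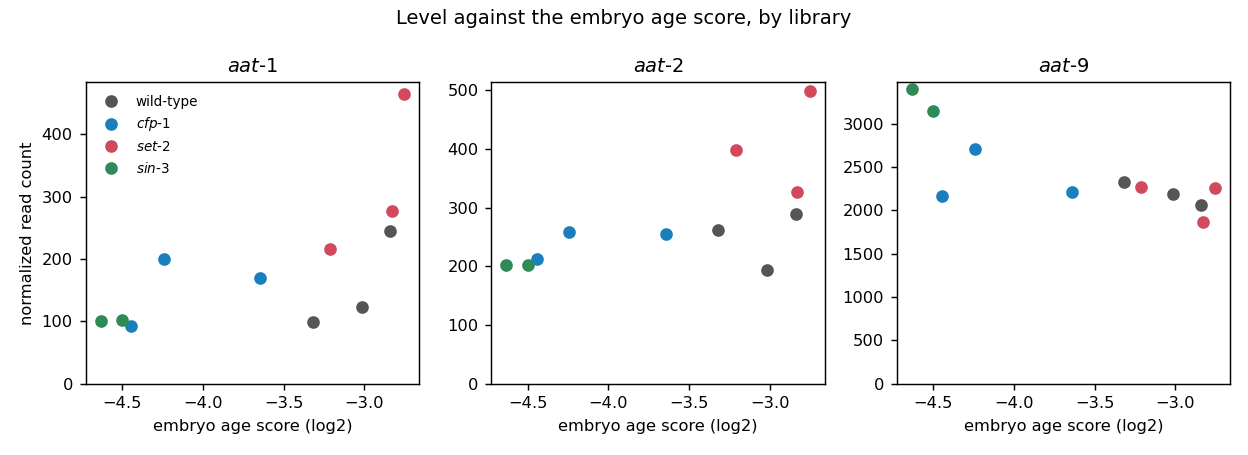
Normalized read count of *aat-1*, *aat-2* and *aat-9* against the embryo age score (mean log2 level of early embryonic transcription factors minus maternal genes) in each library, coloured by strain. The *set-2* scores (-3.21 to -2.75) overlap those of wildtype (-3.32 to -2.84) and reach higher. The *sin-3* libraries, at -4.63 and -4.50, hold the highest *aat-9* levels.

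Across the 11 libraries, which share strains, the log2 levels of *aat-1* followed those of *aat-4* (Pearson r = 0.88), *aat-2* (0.88) and *aat-3* (0.85) and, of the heavy chains, those of *atgp-1* (0.93) more closely than those of *atgp-2* (0.64). *aat-9* had negative values with every other member, from -0.51 with *aat-4* to -0.32 with *aat-3*. These values are a description over 11 points in 4 strains. The genes with the most similar pattern were *mnr-1* (r = 0.99), *lron-1* (0.99) and *lgc-27* (0.98) for *aat-1*, *sptl-2* (0.95), T19D12.6 (0.94) and *acly-2* (0.94) for *aat-2*, and *plx-2* (0.99), *rig-1* (0.98) and *apl-1* (0.98) for *aat-3*. For *aat-4* they were T01B10.5 (0.95), *ndx-1* (0.94) and *ric-3* (0.94), for *aat-5* *haf-4* (0.91), *inso-1* (0.91) and Y73E7A.3 (0.89), and for *aat-9* *epg-3* (0.96), *vnut-1* (0.96) and *ctps-1* (0.96).

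Genes of other transporter families were counted as a list by family, and what each member carries was not checked here. Of 27 listed transporters of the SLC6 (*snf*), SLC1 (*glt*), SLC36 and peptide families, 17 were tested. In *cfp-1* embryos, 1 of these rose, the intestinal peptide transporter *pept-1* (by 3.18 on the log2 scale, standard error 0.43, adjusted p = 0.000525), and 1 fell, *snf-1* (-0.60, standard error 0.17, adjusted p = 0.0218). In *set-2*, 2 rose (*pept-1* and *snf-3*) and 2 fell (*snf-6* and *slc-36.4*), and in *sin-3*, 3 rose (*pept-1*, *snf-7* and *slc-36.4*) and 1 fell (*slc-36.2*). The calls made up 2 of 17 genes in *cfp-1*, where 24.0% of all genes tested were called in either direction, 4 of 17 in *set-2*, where 14.4% were, and 4 of 17 in *sin-3*, where 25.2% were. *pept-1* had between 4 and 100 reads per library. The 3 peptide transporter genes together held 0.41 to 0.83 CPM in wildtype and 1.61 to 3.15 CPM in *cfp-1*. The rise of *pept-1* thus rests on few wildtype reads. A further list held 16 genes of amino acid sensing and the signalling downstream of it, such as the TOR kinase *let-363* and the kinase *gcn-2*. Of these, 0 rose and 1 fell in *cfp-1* (*gcn-2*, -0.47 on the log2 scale, standard error 0.13, adjusted p = 0.0240). In *set-2*, 0 rose and 2 fell (*let-363* and *gcn-2*), and in *sin-3*, 1 rose and 2 fell. These are 1, 2 and 3 of 16, beside the same shares of all genes.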

How the data were processed

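The authors mapped the reads to release WS254 of the genome (assembly WBcel235) with STAR 2.4.1d, filtered them by mapping score in SAMtools 0.1.19 and deposited htseq-count 0.7.2 read counts per gene, without normalization. The authors also deposited 3 tables with their own DESeq2 fold changes and p-values, which were not used. Counts were normalized by TMM in edgeR 4.0.16 (R 4.3.3). Protein-coding genes with a mean normalized count above 10 were tested, as in the study's filter, with one mean per strain over the 11 libraries. Mutants were compared by the quasi-likelihood test of edgeR, with p-values adjusted by the Benjamini-Hochberg method and genes called at an adjusted p under 0.05. Standard errors and 95% intervals of log2 fold changes came from the same fit. Pearson correlations used log2 CPM with a prior count of 2. Alternatives included DESeq2 1.42.0, other scalings and filters, each library left out, blocks and an embryo age covariate. The procedure was tested on simulated data. Gene positions and lengths came from Ensembl release 115. No sequences were used here.

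The members, the lists and the tests were chosen with earlier results of these data known. The text names the 6 genes in full, the heavy chain genes and the 3 protein-coding genes with the highest correlation with each of the 6. Listed transporters and sensing and signalling genes are given by count, with values for those called in *cfp-1*. Markers of maternal, early embryonic, muscle, neuron, intestine, epidermis, sperm and yolk genes were summed in each library. Read counts limit the precision of *aat-4* and *aat-5* most.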

Additional observations from a re-analysis of the deposited data

How the results depend on the processing

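In *cfp-1*, 0 of the 6 genes were called under every alternative run. In *set-2*, the main 1 call became 2 with DESeq2 and with the 3 libraries richest in muscle markers left out, 0 with only the strains compared in the fit, 0 with the number in the sample titles as a block and 0 at an adjusted p under 0.01, and lay between 0 and 3 with 1 library left out. *aat-2* lost its call without wildtype replicate 2 or 3, *set-2* replicate 2 or 3 or *sin-3* replicate 2. The 2 genes with every *set-2* library above wildtype stayed 2 under each scaling, and were 2 or 3 with 1 library left out. Apart from small changes in scaling, leaving out a library can keep or add such a separation but not remove one. The count with 1 library left out is therefore no check of it. In *sin-3*, the 1 call, *aat-9*, was 0 with the title number as a block and with the age score, and between 0 and 1 with 1 library left out (0 without *sin-3* replicate 2). For *aat-1*, *set-2* minus *sin-3* turned from 1.65 to -0.66 (standard error 0.94) with the age score, and the cause was not tested. *atgp-1* in *set-2* was also not called with the title number as a block (adjusted p = 0.220). Whether the replicate numbers pair the libraries could not be told. Correlations of same-numbered libraries lay between -0.448 and 0.468, and those of differently numbered ones between -0.505 and 0.46. Each strain of 2 or 3 libraries was centred first, which limits what these values can show. The replicate block gave 0 calls in *cfp-1*, 1 in *sin-3* (*aat-9*) and 1 in *set-2*, which was *aat-1* (adjusted p = 0.0345) while *aat-2* lost its call (adjusted p = 0.0502). *aat-5* could not be fitted with at least 10 counts in every library. The ranks in wildtype did not move with the length used, and the genes most like each member changed order with Spearman's rho. Of 1098 single-gene fold changes over the alternatives, 59 moved by at least 1 SD between replicates, 31 with the age score and 18 with the title number as a block.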

Other observations

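The 3 *aat* genes outside the list had few reads and were not tested in the main fit. *aat-8* had at most 3 counts in any library. *aat-6*, a transporter of the intestine, had 2, 7 and 8 counts in wildtype, 0, 1 and 0 in *set-2*, 4, 2 and 2 in *cfp-1* and 3 and 1 in *sin-3* embryos. The ratio of *set-2* to wildtype was 0.050 (95% counting interval 0.001 to 0.322, exact). *aat-7* had 0, 1 and 4 counts in wildtype, 1, 1 and 10 in *set-2*, 4, 17 and 14 in *cfp-1* and 10 and 18 in *sin-3* embryos. Its ratio to wildtype was 7.31 (2.85 to 23.9) in *cfp-1*, 9.22 (3.52 to 30.6) in *sin-3* and 2.06 (0.68 to 7.46) in *set-2*, intervals that cover counting error only. With no filter on low counts, edgeR's test gave *aat-7* an adjusted p of 0.0346 in *cfp-1* and 0.0259 in *sin-3*. It gave *aat-6* an adjusted p of 0.0272 in *set-2*. Of 18501 genes, this run called 1514 up and 1378 down in *cfp-1*, 1558 and 1246 in *sin-3* and 1213 and 849 in *set-2*. With edgeR's own filter the values for *aat-7* were 0.0502 and 0.0419. *aat-7* passed that filter only through *cfp-1* and *sin-3* libraries, where it was high, so these values are a description.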
